A study of Oryza sativa with 24 samples.

Results

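The genes described here peaked in young rice panicles at stage 7 and were already counted at an earlier stage. A gene was a member when its mean at stage 5 or stage 6 reached 2 CPM (counts of a gene for every 1000000 counts of its library) and its stage 7 mean was at least 2 times the highest of the other 3 stage means, with 0.5 CPM added to both sides of that ratio. Of the 36099 genes in the table, 18540 reached the level before the peak, and 137 of these (0.739%) also passed the ratio. Fewer than the 200 genes allowed met the rule, so all 137 were kept. The members were thus chosen by their stage mean CPM, so every value by stage below is a description without a test.

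The samples were young panicles of Oryza sativa indica cv. IR64 from growth-chamber plants, either wild type or a triple mutant with tps2, tps3 and tps6 edited in the same background. Panicles were taken when pollen mother cells form (stage 5), at their meiosis (stage 6), while pollen fills (stage 7) and while it matures (stage 8), with 3 independent biological replicates labelled per genotype and stage. The labels do not say how many edited lines the mutant plants came from. The shallowest library had 11398861 counts and the deepest 15860931.

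In 3 of the 276 pairs of columns, a mutant and a wild-type column held the same value for every gene: replicate 3 of stage 6 and replicates 2 and 3 of stage 7. Each of these 3 pairs was counted as 1 library of unresolved genotype. They entered the stage means and no comparison between genotypes. The 18 libraries of resolved genotype comprised 3 mutant and 3 wild-type libraries at stages 5 and 8, a pair of each at stage 6 and 1 of each at stage 7.

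Trehalose phosphate synthases make trehalose 6-phosphate, a sugar signal that in plants follows the supply of sucrose. Class II members of the family carry synthase-like and phosphatase-like domains, and most have little or no measurable synthase activity. During pollen filling the young pollen grains take up sugars from the anther wall and store starch, while the tapetum, the innermost layer of that wall, degenerates. A young panicle holds anthers together with pistils, glumes and stem tissue. In such bulk tissue, fewer cells of a type and less RNA per cell cannot be told apart. None of the 36099 identifiers matched the symbols of the gene table used for names, including 28 symbols of tapetum, meiosis and pollen genes and of the edited genes, so members are given by identifier, their roles are not stated, and neither the tissue nor the edited genes were checked by marker.

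The label "expressed before" held at stage 6 for every member and at stage 5 for fewer. All 137 members had a stage 6 mean of at least 2 CPM, whereas 62 had one at stage 5. At stage 5, 40 members were under 0.5 CPM and 9 had no count at all. The median member stood at 1.85 CPM at stage 5 (quartiles 0.368 and 7.03), 13.7 at stage 6 (4.64 and 36.0), 41.7 at stage 7 (15.5 and 114) and 15.2 at stage 8 (5.50 and 36.9). Taken per member, with 0.5 CPM added to both means, the median ratio of stage 6 to stage 5 was 4.34. The median ratio of stage 8 to the higher earlier mean, taken likewise, was 1.05. From stage 5 to 6, 135 of 137 members went up, and 75 of 137 were higher at stage 8 than at stage 6.

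The ratio that defined the peak was modest for most members. Its median was 2.36, 25 members reached 3 and 1 reached 4. Just inside the threshold lay OsIR64_04g0007540 (2.001) and OsIR64_08g0024720 (2.003), and just outside OsIR64_07g0023100 (1.996) and OsIR64_03g0035500 (1.992). On the level before the peak, OsIR64_03g0037260 (2.087 CPM) and OsIR64_01g0039310 (2.092 CPM) were just inside, and OsIR64_12g0002350 (1.989 CPM) and OsIR64_01g0011240 (1.902 CPM) just outside. A further 104 genes passed the ratio without reaching the level before it.

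**Figure D1:**
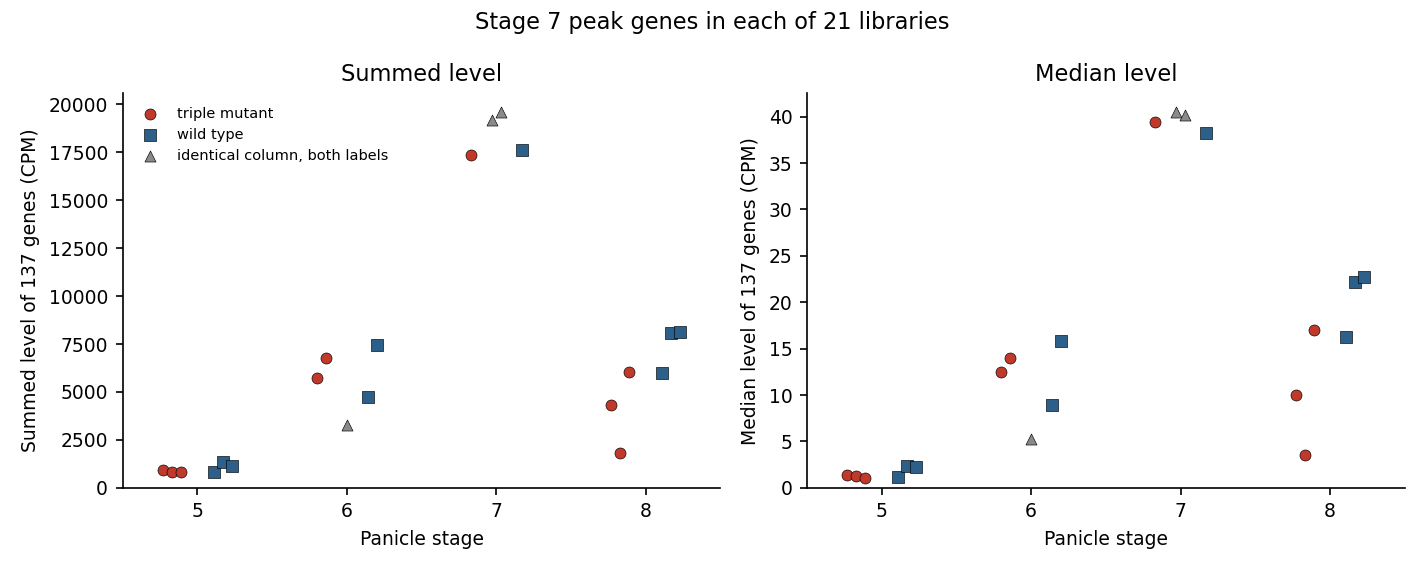
Summed level of the 137 members in each of 21 libraries (CPM), by stage and genotype, with 1 point per library, beside the median level of the members (CPM) in the same libraries. The 4 stage 7 libraries lie between 17348 and 19626 CPM, above every library of the other stages, and the mutant libraries of stage 8 lie between 1823 and 6057 CPM against 5978 to 8105 CPM in wild type.

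Summed over the members, the 6 stage 5 libraries held 807 to 1348 CPM. The resolved stage 6 libraries held 5737 and 6781 CPM in the mutant and 4754 and 7440 CPM in wild type, and the unresolved stage 6 library held 3252 CPM. At stage 7 the sum was 17348 CPM in the mutant library, 17637 CPM in the wild-type library, and 19204 and 19626 CPM in the unresolved libraries. The members thus took under 0.135% of all counts at stage 5 and between 1.735% and 1.96% at stage 7. At stage 8 the sum was 4335, 1823 and 6057 CPM in the mutant and 5978, 8079 and 8105 CPM in wild type, all under the stage 7 libraries, with the mutant replicate 2 below and wild-type replicates 2 and 3 above every stage 6 library.

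By library, the peak of the members is a description only, because the rule chose them by the stage means of the same libraries. In 132 of 137 the highest of the 21 libraries was a stage 7 library, and in 93 all 4 stage 7 libraries lay above every library of the other stages. The exceptions were 3 members highest in wild type stage 6 replicate 2, OsIR64_02g0016870 in mutant stage 8 replicate 3 and OsIR64_09g0017070 in wild type stage 5 replicate 2. Taken by genotype, the stage 7 mean was the highest of the 4 in all 137 members in the mutant and in 128 in wild type. Both thresholds of the rule were passed in both genotypes by 46 members, in wild type alone by 15, in the mutant alone by 60 and in neither alone by 16, with a median ratio of 1.93 in wild type and 2.44 in the mutant. With 1 resolved stage 7 library per genotype, these counts have no replicate behind their stage 7 value.

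**Figure D2:**
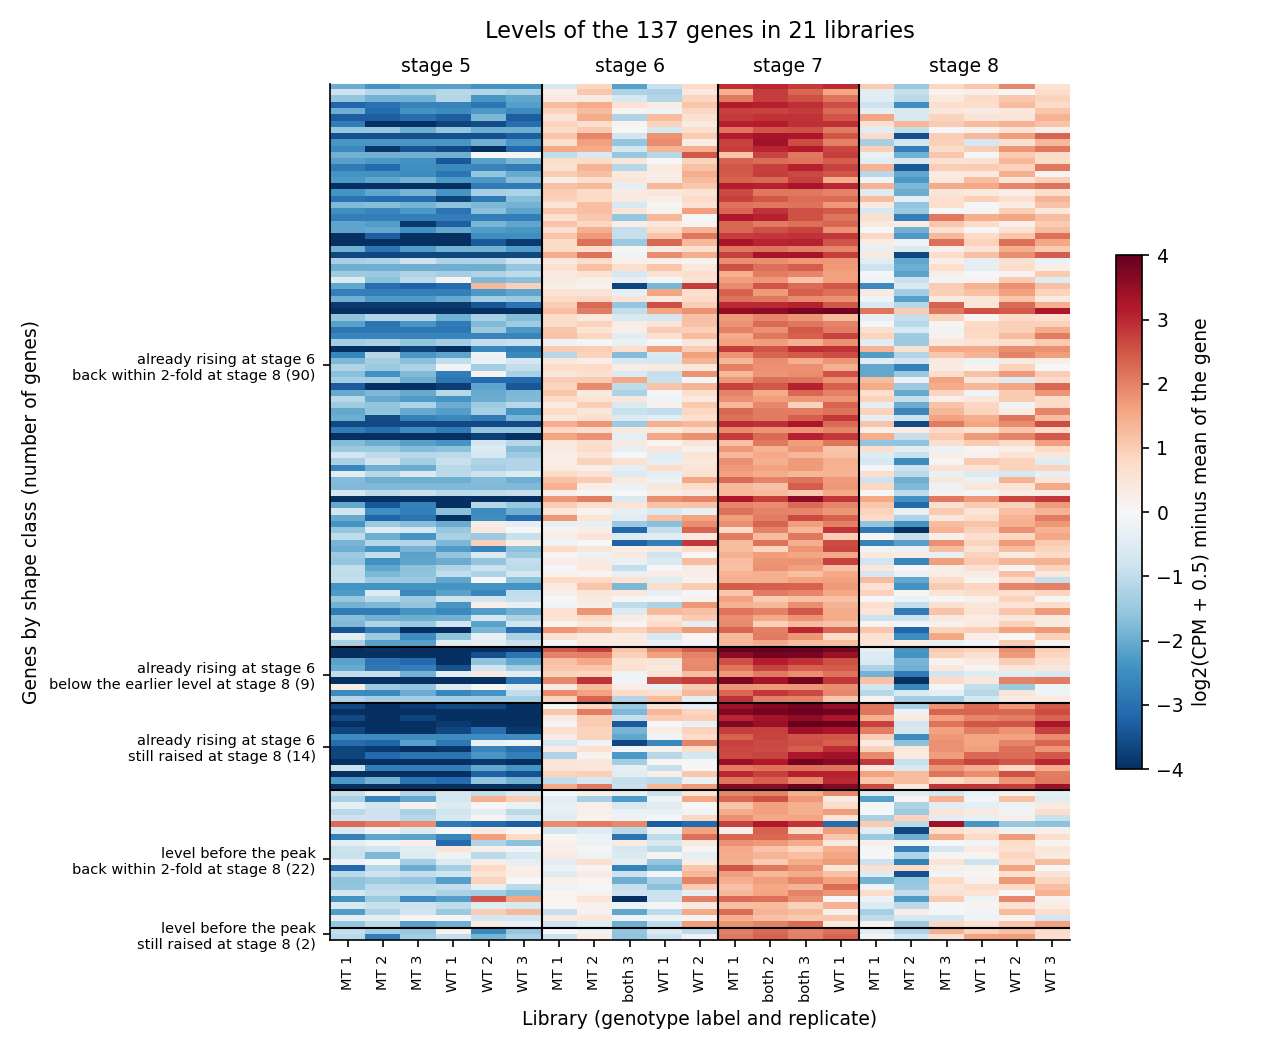
Level of each of the 137 members (rows) in each of 21 libraries (columns, by stage), as log2(CPM + 0.5) minus the mean of that member over the libraries. Stage 7 is the highest column block for nearly every row, and stage 5 the lowest.

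The members divided by what preceded and what followed the peak, with 0.5 CPM added to both means of a ratio. Before it, 113 members had at least doubled from stage 5 to stage 6 and 24 were level within 2-fold, while 0 had fallen 2-fold. After it, 112 were back within 2-fold of their higher earlier mean, 9 were more than 2-fold below it and 16 were still more than 2-fold above it. The most frequent course was a climb at stage 6, a peak and a return, in 90 members, with median levels of 1.48, 14.4, 42.8 and 15.2 CPM at stages 5, 6, 7 and 8. The 22 members that were level before and returned went from 6.17 to 9.87, 28.4 and 11.2 CPM. Steeper on the far side were the 9 members that climbed and then ended below their earlier level, at 1.70, 64.8, 145 and 28.7 CPM. The 14 that climbed and stayed raised ran from 0.346 to 12.5, 127 and 46.0 CPM, and 2 were level before and stayed raised.

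OsIR64_03g0037260 had the highest ratio, 4.01. It was at or near 0 in the 6 stage 5 libraries, with a highest value of 0.168 CPM. At stage 6 it read 1.20 and 4.26 CPM in the mutant, 0.920 and 3.97 CPM in wild type and 0.0850 CPM in the unresolved library, so it was hardly counted in the last. The 4 stage 7 libraries were close together, at 19.5 CPM in the mutant, 20.5 CPM in wild type and 20.9 and 17.99 CPM in the unresolved pair. By stage 8 it had dropped to 4.90, 0.416 and 4.14 CPM in the mutant and 5.02, 9.40 and 3.37 CPM in wild type, and the genotypes overlapped. The second-highest ratio, 3.998 for OsIR64_02g0000810, leaned on the unresolved libraries: these read 35.7 and 25.3 CPM at stage 7 against 13.4 CPM in the mutant and 14.6 CPM in wild type, and the ratio was 2.31 in wild type alone and 1.61 in the mutant alone.

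OsIR64_12g0011750 was one of the members already level before the peak. At stage 5 it read 155, 128 and 134 CPM in the mutant and 118, 169 and 156 CPM in wild type, and at stage 6 it read 249 and 268 CPM, 226 and 305 CPM, and 207 CPM in the unresolved library. All 4 stage 7 libraries were higher still, at 543 CPM in the mutant, 621 CPM in wild type and 569 and 446 CPM in the unresolved pair. OsIR64_04g0007540 was among those that stayed raised. Its stage 7 libraries read 607, 628, 604 and 745 CPM in the same order, and at stage 8 it still held 299, 63.7 and 354 CPM in the mutant and 355, 337 and 528 CPM in wild type. Mutant stage 8 replicate 2 was its lowest library of that stage by a wide margin.

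**Figure D3:**
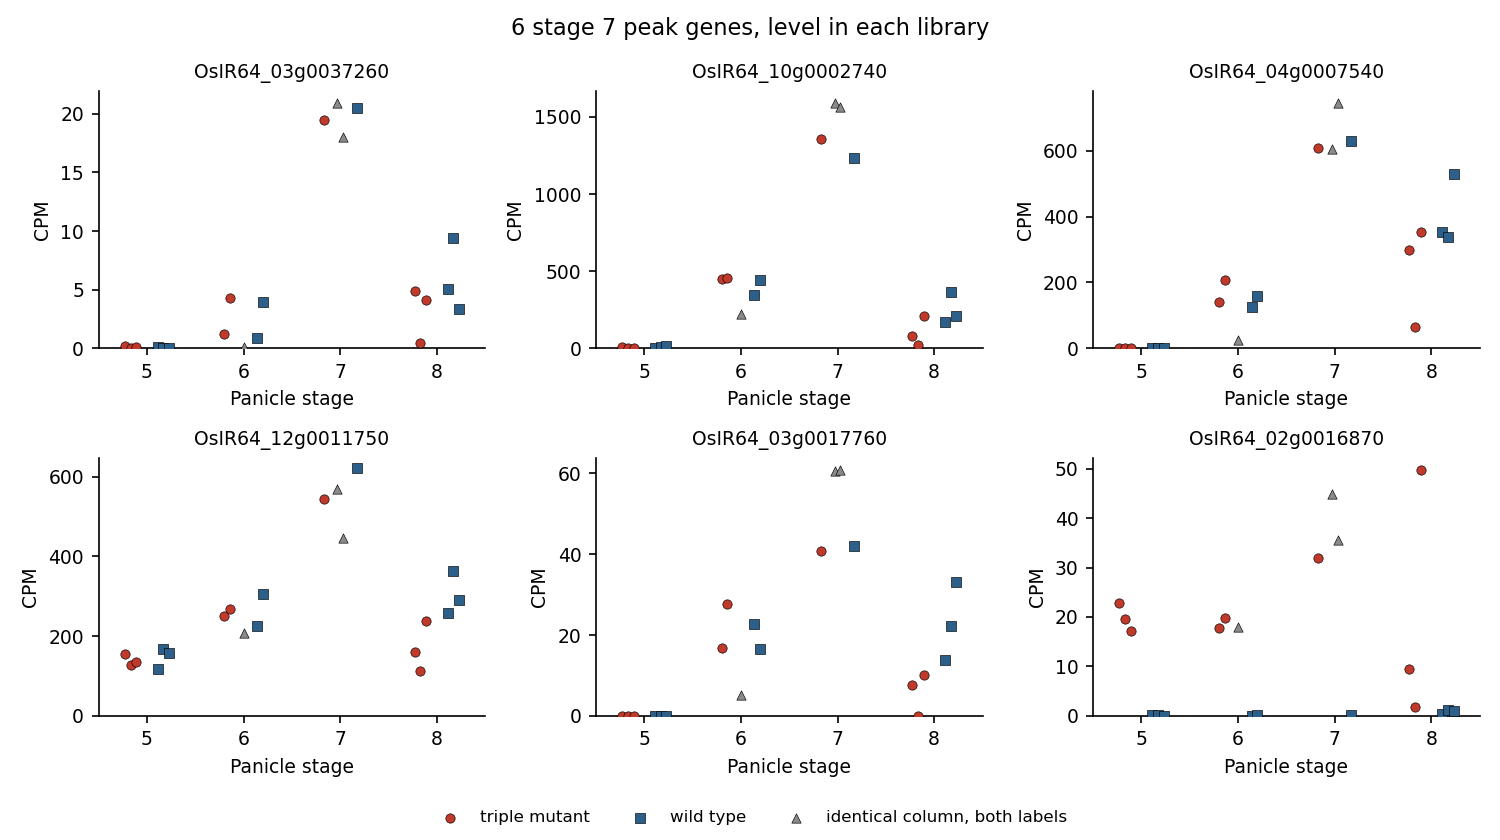
Level in CPM (linear axis from 0) of 6 members named in the text in each of 21 libraries, by stage, with 1 point per library; columns identical under both genotype labels are grey triangles. OsIR64_02g0016870 is at 17.2 to 22.8 CPM in the mutant and at or under 0.173 CPM in wild type at stage 5, while the other members show the stage 7 peak in both genotypes.

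A short run of neighbouring identifiers, OsIR64_10g0002740 to OsIR64_10g0002800, held 5 members among its 7 genes. These identifiers are names and were not mapped to positions, and CPM is not divided by gene length, so levels are not compared between them. OsIR64_10g0002740 went from 3.51 to 14.4 CPM at stage 5, through 452, 455, 348 and 445 CPM in the resolved stage 6 libraries and 220 CPM in the unresolved library, to 1356 CPM in the mutant and 1236 CPM in wild type at stage 7. Its stage 7 ratio was 3.74. The ratios of the other 4 were 3.98 (OsIR64_10g0002750), 3.15 (OsIR64_10g0002780), 2.96 (OsIR64_10g0002790) and 3.00 (OsIR64_10g0002800).

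The remaining identifiers of that run had other courses. OsIR64_10g0002760 was lowest at stage 7, with means of 29.6, 32.2, 18.9 and 30.9 CPM from stage 5 to 8. OsIR64_10g0002770 was highest at stage 6, with means of 11.8, 80.6, 50.6 and 3.43 CPM. No source used here states how reads shared by near-identical genes were counted, so counts of neighbouring members that are close copies would be uncertain. With this run included, 4 runs within a window of 5 identifiers held 11 of the members. By the 12 numbered identifier prefixes, the share of genes past the earlier level that were members went from 0.488% for prefix 07 to 1.19% for prefixes 09 and 10, and it was 0 of 5 genes for the prefix Un.

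**Figure D4:**
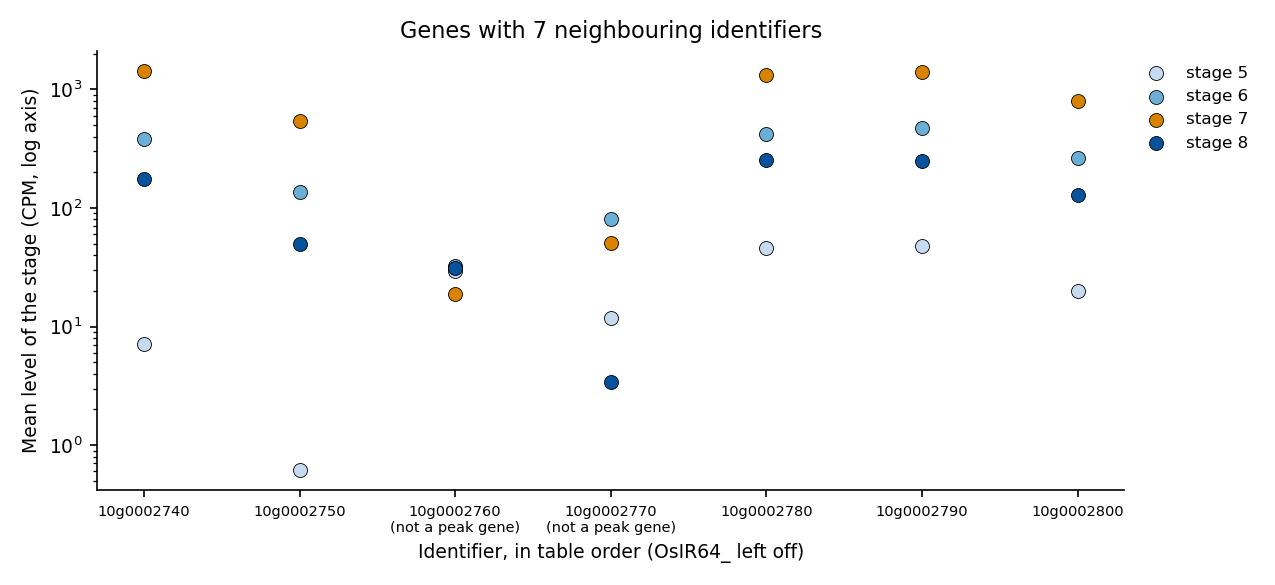
Stage mean CPM (log axis, 1 point per stage and gene) of the 7 genes with neighbouring identifiers OsIR64_10g0002740 to OsIR64_10g0002800, over stages 5 to 8. The 5 members climb to stage 7 and drop at stage 8, whereas OsIR64_10g0002760 has its lowest mean at stage 7 (18.9 CPM) and OsIR64_10g0002770 its highest at stage 6 (80.6 CPM).

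The variation of the members between the 4 stage 7 libraries is given without a comparison to other genes. These libraries entered the stage 7 mean of the rule, which could itself favour genes that were high in all of them. The median coefficient of variation was 18.8%, the highest library was at least 2 times the lowest in 29 members, and it was at least 4 times the lowest in 7. OsIR64_07g0011920 was the steadiest member (3.57%), with 56.6 CPM in the mutant, 58.7 CPM in wild type and 59.7 and 61.7 CPM in the unresolved libraries. OsIR64_04g0023600 varied by 65.0%, with 8.08, 22.5, 36.4 and 11.5 CPM in that order. The wild-type library lay at least 2-fold below the other 3 in 8 members (5.84%) and in 1.98% of the genes past the earlier level. For the mutant library and the unresolved replicates 2 and 3 the number was 0 members, against 1.36%, 0.135% and 0.0647% of those genes.

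The stage 7 libraries differed in how far they had moved along the whole profile. On an axis from the mean of stage 6 (0%) to the mean of stage 8 (100%), computed without the members, the mutant library stood at 40.3%, the unresolved libraries at 35.5% and 37.0% and the wild-type library at 64.7%. The summed member level of the wild-type library nevertheless lay within the range of the other 3 stage 7 libraries. At stage 6 the 5 libraries had the same order on the axis and in summed member level, with the unresolved library lowest on both (−6.36% and 3252 CPM). That library was the lowest of stage 6 in 87 members (63.5%, against 15.7% of the genes past the earlier level). The part of such differences in timing in the genotype comparisons below was not tested.

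Genotype was not a criterion of the rule, although the libraries compared entered its stage means. It was tested with the quasi-likelihood test of edgeR over all 25483 genes that passed its filter, with Benjamini-Hochberg adjustment; all 137 members passed that filter. At stage 8 most members were fitted lower in the mutant. Members are not replicates, and their difference as a group was not tested. By library their summed levels overlapped, with mutant replicate 3 (6057 CPM) above wild-type replicate 1 (5978 CPM). The fitted level was lower in the mutant in 131 of 137 members (95.6%, against a background of 48.9% of all genes tested), and the median log2 difference of mutant minus wild type was −0.95 (quartiles −1.32 and −0.64), against 0.00 over all genes. At least a 2-fold lower level was fitted for 63 members and a 2-fold higher level for 1, where the backgrounds were 8.66% and 9.99%. In 33 members (24.1%) all 3 mutant libraries lay below all 3 wild-type libraries, against a background of 5.7%, and in 1 member all lay above, against a background of 8.73%.

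The rule asked for a low stage 8 mean, to which the mutant libraries contributed, so it could itself favour members that are low in them. The stage 8 difference was therefore also described for genes chosen with stage 8 used otherwise, an alternative added after the data were seen. With stage 8 left out of the rule, 1251 genes were chosen, of which 84.6% were fitted lower in the mutant, with a median log2 difference of −0.55. With the stage 8 mean taken from wild-type libraries alone, 76 genes were chosen, 73 of them members, and 67 (88.2%) were fitted lower, with a median of −0.83. With that mean taken without mutant replicate 2, 95 of 100 genes were fitted lower, with a median of −0.94. The direction was the same in all 3 choices, but these share genes and use the same stage 8 libraries. All 137 members are among the 1251 genes, and 99 of the 100 genes are members. The part of the rule in the difference was not tested.

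Singly, however, 0 members passed an adjusted p of 0.05 at stage 8 in edgeR, where the background was 0.00785% of genes called. An unadjusted p under 0.05 was reached by 35 members, 34 of them lower in the mutant, against backgrounds of 14% in either direction and 7.05% lower. DESeq2, the other tool run, called 6 members, 5 lower and 1 higher (OsIR64_02g0016870), against a background of 1.8%. The 5 lower were OsIR64_03g0009630, OsIR64_07g0020130, OsIR64_10g0002790, OsIR64_11g0023480 and OsIR64_12g0011750.

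**Figure D5:**
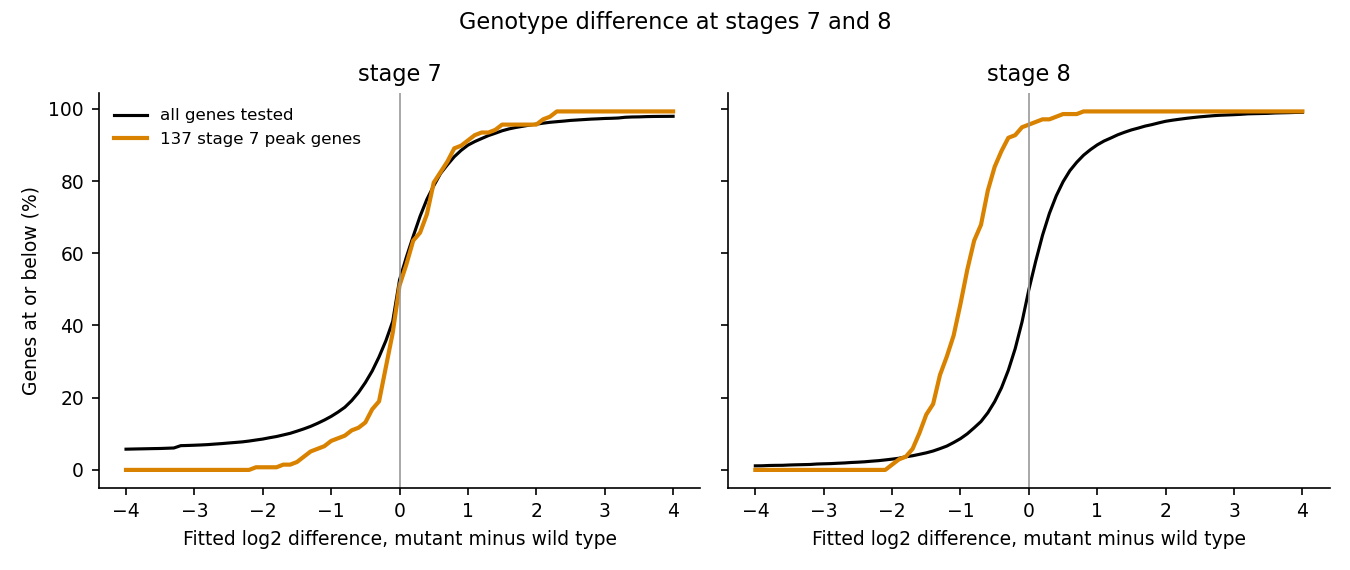
Cumulative share (percent) of members and of all genes tested against the fitted log2 difference, mutant minus wild type, at stages 7 and 8. At stage 8 the curve of the members is displaced to lower values in the mutant (median −0.95 against 0.00), while at stage 7 the medians are −0.02 and 0.

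The difference at stage 8 varied in size between the mutant libraries. Their summed member level was 4072 ± 2130 CPM (SD, n = 3), against 7388 ± 1221 CPM in wild type. Mutant replicate 2 was the lowest of the 6 stage 8 libraries in 113 members (82.5%, against 29.1% of genes past the earlier level), and 124 members in it lay below the lowest wild-type library, as did 35.9% of the genes past the earlier level. For mutant replicate 1 that number was 90 (against 27.6%) and for replicate 3 it was 50 (against 20.1%). On the axis between stages 6 and 8, the mutant libraries stood at 110.7%, 105.2% and 87.7% in replicate order and the wild-type libraries at 101.1%, 96.6% and 98.8%, so the genotypes overlapped there. The 3 libraries furthest along held the 3 lowest sums, 4335, 1823 and 5978 CPM, against 6057, 8079 and 8105 CPM in the others, and the part of timing in the genotype difference was not tested.

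Leaving out mutant replicate 2 moved the median log2 difference to −0.61, and leaving out replicate 3 moved it to −1.40. Without replicate 3, edgeR called 26 members at stage 8, 25 lower and 1 higher, against a background of 7.93% of genes called in either direction and 4.58% called lower, and 85 members (62%) had all mutant libraries below all wild-type libraries, against 18.3% of genes past the earlier level. That number was 64 (46.7%, against 8.24%) without wild-type replicate 1. It was 34 to 47 without any other single library of stage 8, against backgrounds of 7.92% to 9.07%. Leaving out a library cannot lower such a number. The mutant libraries remaining after replicate 3 is left out are the ones furthest along the axis.

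The median log2 difference was −0.95 in the 90 members that climbed and returned, −1.38 in the 9 that ended below their earlier level, −0.86 in the 14 that climbed and stayed raised, −0.82 in the 22 level members that returned and −1.15 in the 2 level members that stayed raised. Whether these groups differ was not tested. Non-overlapping, lower mutant libraries were counted in 23, 2, 2, 5 and 1 of them, where 5.7% of all genes tested had such libraries.

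OsIR64_12g0011750, level before the peak, was lower in every mutant library of stage 8. There it read 161, 111 and 239 CPM in the mutant (170 ± 64.2, SD, n = 3) and 257, 364 and 292 CPM in wild type (305 ± 54.7). The genotypes did not overlap, although mutant replicate 3 came close to the lowest wild-type library. The log2 difference was −0.95 (SE 0.228), with an adjusted p of 0.13 in edgeR and 0.014 in DESeq2. OsIR64_10g0002790 read 150, 83.2 and 231 CPM against 253, 455 and 314 CPM, again without overlap, with a log2 difference of −1.26 (SE 0.432) and adjusted p-values of 0.244 in edgeR and 0.048 in DESeq2.

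Among non-overlapping members, the largest fitted differences below wild type were in OsIR64_03g0017760 and OsIR64_09g0007810. OsIR64_03g0017760 read 7.53, 0 and 10.0 CPM in the mutant and 13.8, 22.3 and 33.2 CPM in wild type (log2 difference −2.09, SE 1.02, adjusted p = 0.406 in edgeR). OsIR64_09g0007810 read 0.592, 1.75 and 10.2 CPM against 12.6, 19.5 and 15.7 CPM (−2.06, SE 1.05, adjusted p = 0.401 in edgeR). In both, replicate 3 was the mutant library nearest to wild type. In OsIR64_10g0002740 of the identifier run the genotypes overlapped, with 78.5, 21.8 and 212 CPM in the mutant and 171, 366 and 207 CPM in wild type (−1.39, SE 0.636, adjusted p = 0.359 in edgeR).

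At stage 7 itself the fitted differences of the members went both ways around a median near 0. Both libraries compared entered the stage 7 mean of the rule. With 1 resolved library per genotype, this does not show that the genotypes were alike. The members' median log2 difference was −0.02 against 0 over all genes, 70 members were fitted lower (background 47.4%) and 67 higher in the mutant, and at least 2-fold differences were fitted for 11 lower and 12 higher members, against backgrounds of 14.8% and 10.1%. In edgeR 0 members were called (background 0.00392%) and 2 had an unadjusted p under 0.05 (background 7.39%), and DESeq2 called 1, OsIR64_02g0016870, which is described last (background 0.242%). With 1 library per genotype, the test assumes that these vary like the other groups. The largest fitted difference below wild type was in OsIR64_05g0018730, at 17.7 CPM in the mutant and 75.9 CPM in wild type (log2 difference −2.11, SE 2.24, adjusted p = 0.893 in edgeR), with the unresolved libraries between them at 40.4 and 25.6 CPM. In the other direction, after OsIR64_02g0016870, OsIR64_09g0017070 read 39.4 CPM in the mutant, 7.99 CPM in wild type and 38.2 and 29.3 CPM in the unresolved libraries (2.29, SE 2.06, adjusted p = 0.85 in edgeR).

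Before the peak, 0 members were called at stage 5 or stage 6 in edgeR (background 0% at both), while DESeq2 called OsIR64_02g0016870 at each, against backgrounds of 0.0538% and 0.0202%. At stage 5, 100 members were fitted lower in the mutant and 28 higher, with a median log2 difference of −0.49, where 48.7% of all genes were fitted lower. An unadjusted p under 0.05 was reached by 18 members at stage 5 (background 4.42%), 15 of them lower. The summed level was 849 ± 54.7 CPM in the mutant and 1113 ± 262 CPM in wild type (SD, n = 3), and wild-type replicate 1, at 830.4 CPM, lay within the mutant range of 807 to 911 CPM. All mutant libraries lay below all wild-type libraries in 11 members (8.03%, background 6.31%) and above them in 4 (background 8.15%).

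At stage 6 the median log2 difference was 0.05, with 64 members fitted lower (background 50.6%) and 73 higher and 2 with an unadjusted p under 0.05 (background 2.96%). Non-overlapping libraries were lower in the mutant in 9 members (6.57%, background 11.4%) and higher in 28 (20.4%, background 20.7%). The summed levels were 6259 ± 738 CPM in the mutant and 6097 ± 1899 CPM in wild type (SD, n = 2).

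Whether the course itself differed between genotypes was tested by interaction. The rise from stage 6 to 7 gave 0 members called in edgeR (background 0%), 0 at an unadjusted p under 0.05 and 0 in DESeq2 (background 0.0101%), with a median log2 difference of −0.02. For the fall from stage 7 to 8, 125 members were fitted to fall further in the mutant (background 49.7%), with a median difference of −1.002 on the log2 scale against 0 over all genes. None of this was called, with 0 members in edgeR (background 0%) and 0 in DESeq2 (background 0.108%), and the 7 members with an unadjusted p under 0.05 compare with a background of 6.46%. The test over all stages for a genotype difference that changes with stage also called 0 in either tool (background 0% in edgeR and 0.188% in DESeq2), with 7 at an unadjusted p under 0.05 (background 5.14%). So the lower mutant level at stage 8 was not shown to differ from that at stage 7 for any single member.

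Over the mean of the 4 stages, 1 member was called, OsIR64_02g0016870, where 0.0549% of all genes were. An unadjusted p under 0.05 was reached by 19 members, 16 of them lower in the mutant, against a background of 11.6% in either direction. DESeq2 called 2 members, this one and OsIR64_11g0013300 (background 1.25%). The member called by edgeR had the higher mutant mean at every stage. At stage 5 it read 22.8, 19.6 and 17.2 CPM in the mutant and 0.173, 0.0833 and 0 CPM in wild type. At stage 6 the mutant read 17.8 and 19.8 CPM and wild type 0 and 0.0764 CPM, and at stage 7 the values were 32.0 and 0.0815 CPM. The 2 genotypes did not overlap at these stages, and the wild-type libraries of stages 5 to 7 together held 5 counts of this gene.

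At stage 8 the mutant libraries of OsIR64_02g0016870 read 9.56, 1.83 and 49.7 CPM and the wild-type libraries 0.471, 1.22 and 1.07 CPM, so the lowest mutant library lay just above wild type. The adjusted p for the mean of 4 stages was 0.0035 in edgeR (log2 difference 7.25, SE 0.845), and the size of that difference is imprecise because wild type was near 0. It stayed called with any single library of stages 5, 6 and 8 left out, but not when all 24 columns were fitted, which enters each unresolved library under both genotypes (log2 difference 3.52, adjusted p = 0.22 in edgeR). In the 3 unresolved libraries the gene read 17.9 CPM at stage 6 and 44.9 and 35.6 CPM at stage 7, within or above the range of the mutant libraries of these stages. The stage 7 ratio of this member was 2.47 over all libraries, 1.56 in the mutant alone and 0.409 in wild type alone, so it passed the rule in neither genotype alone.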

How the data were processed

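The authors deposited raw read counts for each gene. Per the series design text, read pairs were trimmed, aligned to the IR64 genome with STAR and counted by HTSeq-count against high-confidence gene models of IR64. Trimmomatic 0.39 and kallisto are named in the submitters' processing notes; the role of kallisto, the strand setting, the annotation version and the treatment of shared reads are given in no source used here. Counts of near-identical, overlapping and antisense genes are therefore uncertain. The 24 columns all mapped to labelled samples.

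CPM was each count divided by its column total and scaled to 1000000, without TMM scaling. Stage means were taken over 21 libraries. Genotype contrasts came from 1 fit of 18 libraries in 8 groups (edgeR 4.0.16 in R 4.3.3, TMM, filterByExpr, robust quasi-likelihood F-test, 10 residual degrees of freedom), with Benjamini-Hochberg adjustment over 25483 genes and a threshold of 0.05. Standard errors were derived from the log2 fold change and its F statistic. The code of the fit was run on simulated counts with the same spread for every gene and the same genotype difference at every stage. That run does not show how large a difference the fit could find in these data. DESeq2 1.42.0, other scalings, filters, library sets and rule settings, a replicate block and leaving out each library were the alternatives. P-values measure the spread between the labelled biological replicates.

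The members and lists were chosen with earlier results of these data known. Named members were the 2 of highest ratio, the 2 with the highest stage 7 mean overall and in each course of 5 or more, those nearest the thresholds, those called between genotypes, otherwise the 2 largest non-overlapping changes each way of at least 5 CPM, and the 2 steadiest and 2 most variable at stage 7. Others were named after their values were seen: the exceptions by library, the identifier run and members called by DESeq2. The rule for ranks near 200 was applied to the last members inside and the nearest genes outside. The table used for names held 39387 genes of another rice assembly, of which 0 matched, and all 28 marker symbols stayed without a value.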

Additional observations from a re-analysis of the deposited data

Results flagged for a closer look

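OsIR64_02g0016870 was counted at mutant-like levels in the libraries of unresolved genotype, which the comparisons between genotypes do not use. It read 17.9 CPM in the unresolved stage 6 replicate 3, against 17.8 and 19.8 CPM in the mutant and 0 and 0.0764 CPM in wild type. In the unresolved stage 7 replicates 2 and 3 it read 44.9 and 35.6 CPM, against 32.0 CPM in the mutant and 0.0815 CPM in wild type. No sample was assigned to a genotype from these values.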

How the results depend on the processing

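The number of members called at stages 5, 6, 7 and 8 and over the mean of 4 stages was 0, 0, 0, 0 and 1. With DESeq2 it was 1, 1, 1, 6 and 2. With all 24 columns it was 1 at stage 8 and 0 over the mean of 4 stages, where 133 and 5 of 23724 genes tested were called. With only the libraries of stage 5 it was 1 at that stage, where 7 of 19504 genes tested were called. Leaving out 1 library gave 0 to 1 at stages 5, 6 and 7, 0 to 26 at stage 8, 1 to 5 over the mean, 0 to 2 for the change with stage, and 0 to 0 for the rise and the fall. The counts of 26, 5 and 2 came without mutant stage 8 replicate 3, where 2008, 484 and 116 of 25322 genes tested were called. Members with all mutant libraries lower at stage 8 ranged from 34 to 85, an alternative chosen after seeing the data. Their number cannot fall below the 33 of all libraries when a library is left out. The background rose as well, from 5.51% to between 7.92% and 18.3% of genes past the earlier level.

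Other size factors, no low-count filter and the unresolved libraries as groups of their own changed none of these counts. Nor did the replicate block, which gave 0 at each stage and 1 over the mean; deviations of same-numbered libraries correlated at 0.013 to 0.135, so the numbers were not taken as pairs.

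The rule itself was passed by 283 genes in mutant libraries alone and by 114 genes in wild-type libraries alone. Of the members, 61 were kept in wild-type libraries alone. In mutant libraries alone 94 were kept, where more genes passed than the 200 allowed. Without 1 library, 100 to 163 genes passed and 99 to 137 members were kept, the fewest without mutant stage 8 replicate 2. Stage 7 alone could not be fitted, with 1 library per genotype, and contrasts that need stage 7 have no value without either of its resolved libraries. The median stage 8 difference stayed below 0 without any 1 library, from −1.40 to −0.61, and for genes chosen with stage 8 used otherwise in the rule, from −0.94 to −0.55.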

Other observations

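A group of 14 members stood apart at stage 5, chosen after their values were seen and therefore without a test. In each, wild-type replicates 2 and 3 were both at least 2-fold above the other 4 stage 5 libraries, as they were in 0.825% of the genes past the earlier level. Their median stage 5 level was 13.5 and 9.42 CPM in these libraries, 1.25 CPM in wild-type replicate 1 and 1.05, 1.36 and 1.17 CPM in the mutant.

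The same members differed between libraries at other stages. At stage 6 their median was 35.9 CPM in wild-type replicate 2, which was the highest library of that stage in 13 of the 14, against 2.49 CPM in wild-type replicate 1, 7.72 and 8.40 CPM in the mutant and 0.552 CPM in the unresolved library. At stage 7 the 4 libraries were alike, between 28.9 and 33.2 CPM. At stage 8 the mutant libraries read 4.27, 3.29 and 16.3 CPM and the wild-type libraries 13.4, 22.8 and 15.7 CPM, and replicate 3 was the highest mutant library in 11 of the 14. The median log2 difference of mutant minus wild type at stage 8 was −1.13 in the 14 and −0.93 in the remaining members. At stage 5 that difference was −2.53 and −0.41, but the 14 were chosen by their stage 5 libraries, so a low value there follows from the choice.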
